A study of Mus musculus with 24 samples.

Results

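The day 3 expression change was followed in primary mouse myoblasts (PMs) in which Tead1 and Tead4 had been silenced together. It rests on 4 of the 24 RNA-seq libraries of the study, 2 replicates of siTead1/4 PMs at day 0 and 2 at day 3, chosen by cell type, siRNA and day from the sample labels. Every gene was considered. The question addressed was which changes of differentiation still occur after the silencing, so the 2 siControl PM libraries at day 0 and the 2 at day 3, which carry the same day contrast in cells transfected with an siRNA against luciferase, were used as the background. PMs are muscle precursor cells taken from the muscle of young C57BL/6 mice (strain C57/B6 in the labels) and grown on matrigel. They were transfected in growth conditions, and the day 0 RNA was taken one day later, before the cells were moved to medium with little horse serum. Day 0 is thus a time after silencing and before serum withdrawal. The siRNAs act transiently on a population of cells, no allele was changed, and nothing in the labels says whether cells from several animals were pooled. The labels describe the replicates as biological without saying what separates them, so p-values measure only the spread between such replicates.

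Tead factors are DNA-binding proteins that recognise the M-CAT element, first described in promoters of muscle genes, and they activate transcription together with cofactors such as Yap1, Wwtr1 (Taz) and the Vgll proteins. Yap1 and Wwtr1 are held in check by the Hippo pathway, and with Tead factors they drive growth-related genes in many cell types. When myoblasts lose serum, they leave the cell cycle, and the myogenic regulators Myod1 and Myog and the Mef2 factors switch on the genes of the sarcomere, of calcium handling and of muscle energy metabolism while the cells fuse into myotubes.

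The 4 siTead1/4 libraries held 37782553 to 51110723 reads on genes and the 4 siControl ones 32571583 to 44748721. Of the 28109 genes of the table, 16144 passed the filter on low counts and were tested. Over these genes the replicates of the 6 PM groups correlated with Pearson's r of 0.986 to 0.993 on the log2 scale, which is a description across genes. Levels are given as CPM, which are counts relative to a library size scaled by TMM. A gene is said to have risen, fallen or been called where the edgeR quasi-likelihood test gave an adjusted p under 0.05 and a log2 fold change over 1 in size. All changes are log2 values of day 3 over day 0 and are followed by their standard error.

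The cells carried the marks of myoblasts. All 8 myoblast markers were detected in all 4 siTead1/4 libraries, with Myod1 at 958 and 1005 CPM and the early factor Pax7 at 119 and 116 CPM at day 0. Of the macrophage markers, Ptprc, Emr1, Fcgr1 and C1qa had at most 3 counts in any PM library, and of the 4 that were tested Itgam and Lyz2 rose, with Lyz2 at no more than 0.103 CPM in any siTead1/4 library. Only 1 of these 2 rises was called without replicate 1 or 2 of day 0 or without replicate 1 of day 3, and by DESeq2. Endothelial RNA was low and differed by replicate number in place of group. The summed level of the 8 endothelial markers was 17.5 and 10.4 CPM in replicate 1 of siTead1/4 PMs at days 0 and 3, and 5.49 and 5.01 CPM in replicate 2, while the siControl libraries lay at 11.8 and 15.4 CPM in replicate 1 and at 3.21 and 3.86 CPM in replicate 2. Of the endothelial list Cldn5 rose and Tek fell in siTead1/4 PMs, and the fall was lost without replicate 1 of day 0. Of 8 fibroblast markers tested, 2 rose and 2 fell. Neither rise was called without replicate 1 of day 0 or replicate 2 of day 3, and without replicate 1 of day 3 there were 1 rise and 1 fall. Their sum, nearly all of it Col3a1, was 756 and 746 CPM at day 0 and 453 and 748 CPM at day 3. Of 8 smooth muscle and pericyte markers 4 rose, Acta2 and Tagln among them, and Rgs5 fell. Of the 7 Schwann cell markers tested, Erbb3 rose and Mbp fell. Among 7 adipocyte markers only Fabp4 passed the filter, at 0.137 to 1.59 CPM in the siTead1/4 libraries. Beside these marker counts, 15.9% of all genes tested rose and 12.4% fell in siTead1/4 PMs. In bulk RNA, fewer cells of a type and less RNA per cell cannot be told apart.

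Both targets were lower in the silenced cells than in siControl at either day, and both days kept some of the transcript. Tead1 (mm9 chromosome 7, 119822832 to 120050319) stood at 69.3 and 49.7 CPM at day 0 and at 95.6 and 74.3 CPM at day 3, against 172 and 151 and then 278 and 267 CPM in siControl PMs. The silenced libraries lay below all siControl libraries, by -1.44 ± 0.31 at day 0 (edgeR adjusted p = 0.021) and by -1.68 ± 0.31 at day 3 (adjusted p = 0.011). Tead4 (mm9 chromosome 6, 128174306 to 128250841) stood at 13.1 and 11 CPM at day 0 and at 29.4 and 33.5 CPM at day 3, against 64.2 and 59.5 and then 186 and 189 CPM in siControl PMs. The effect of the siRNAs on Tead4 was -2.36 ± 0.17 at day 0 (edgeR adjusted p = 0.00026) and -2.58 ± 0.17 at day 3 (adjusted p = 9.3e-05).

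Tead4 rose from day 0 to day 3 also in the silenced cells, by 1.39 ± 0.17 (edgeR adjusted p = 5.6e-05), beside 1.60 in siControl PMs, and both day 3 libraries lay above both day 0 libraries. The change of Tead1 was 0.51 ± 0.31 and did not pass the test (adjusted p = 0.18). Of the family members that were not targeted, Tead3 was found at 20.8 and 20.5 CPM at day 0 and at 58.1 and 89.4 CPM at day 3, a rise of 1.84 ± 0.20 (edgeR adjusted p = 2.9e-05). At day 3 it was above siControl by 1.16 ± 0.20 (adjusted p = 0.0070). Tead2 was at 99.7 and 92.9 CPM and then at 51.9 and 68.9 CPM, a change of -0.67 ± 0.14 that did not reach the size asked for, whereas it fell in siControl PMs. The difference of the day 3 change between the siRNAs was not called for any of the 4 genes, with adjusted p of 0.20 to 0.87. Of the 9 family members and cofactors tested, Wwtr1 was the remaining one that rose, from 90.7 and 113 CPM to 249 and 250 CPM.

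The day 3 programme of siTead1/4 PMs was large. In all, 2568 genes rose (15.9% of those tested) and 2005 fell (12.4%), compared with 2821 (17.5%) and 2398 (14.9%) in siControl PMs. For each of the 2568 and 2005 genes both libraries of one day lay beyond both of the other. As the calls rest on these same values, this adds no support to them, and the share over all genes tested was not counted. Of the genes that rose, 533 did so by more than 3 on the log2 scale and 120 by more than 5, and of those that fell 219 and 47 passed these sizes. Protein coding genes gave 2284 rises and 1802 falls among 14444 tested, and lincRNAs 128 and 86 among 720.

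Most changes of siControl PMs were also made by the silenced cells. Of the 2821 genes that rose in siControl PMs, 2007 (71.1%) rose in siTead1/4 PMs, none fell, and 814 were not called. These 2007 genes are 78.2% of the genes that rose in siTead1/4 PMs. Of the 2398 genes that fell in siControl PMs, 1658 (69.1%, and 82.7% of the falls in siTead1/4 PMs) fell after silencing and 737 were not called. The background for these shares is the 10925 genes not called in siControl PMs, of which 5.11% rose and 3.18% fell in siTead1/4 PMs. The remaining 3 genes, Necab2, Rab27a and Gm11346, fell in siControl and rose in siTead1/4 PMs. They were named after their values were seen, none exceeded 2 CPM in the mean of any of the 4 groups, and their differences were not called (edgeR adjusted p = 0.071, 0.077 and 0.057).

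**Figure D1:**
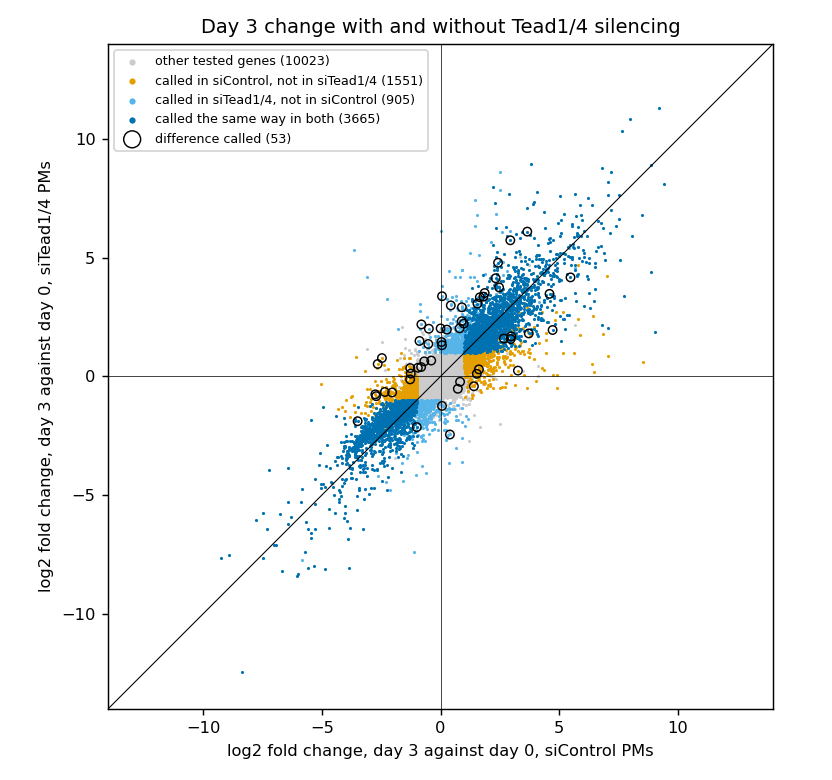
Log2 change from day 0 to day 3 of every tested gene in siControl PMs (horizontal axis) and in siTead1/4 PMs (vertical axis), 1 point per gene. Genes called the same way in both (3665) lie along the diagonal, 1551 were called in siControl and 905 in siTead1/4 PMs only, and the 53 genes whose change differed between the siRNAs are marked on top of these classes.

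The share that was called again increased with the size of the siControl change. The fixed cut of 1 brings this about in part, since genes just past it under one siRNA can miss it under the other. Of 1537 genes that rose by 1 to 2 in siControl PMs, 58.2% rose after silencing, and the share was 85.4% of 721 genes between 2 and 3, 87.8% of 443 between 3 and 5, and 89.2% of 120 above 5. For falls, the shares were 57.7% of 1524, 85.6% of 514, 93.8% of 324 and 97.2% of 36 genes. The median changes after silencing and in siControl were 1.15 and 1.40 for rises by 1 to 2, and 5.02 and 5.89 above 5. For falls they were -1.10 and -1.37 in the lowest class, and -6.17 and -5.93 in the highest. Many of the genes not called after silencing moved in the same direction by less. Of the 814 rises not called, 765 had the same sign and 373 an adjusted p under 0.05 with that sign, with a median change of 0.78. Of the 737 falls not called, 704 had the same sign and 438 such an adjusted p, with a median change of -0.81.

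The changes of siControl genes were somewhat smaller in siTead1/4 PMs. The genes that rose in siControl PMs had a median change of 1.60 after silencing and 1.88 in siControl, and those that fell had -1.36 and -1.67. With genes at or below 3 counts in both libraries of a day set at their lower bound, the medians after silencing were 1.58 and -1.36. The choice of genes can be turned round. Genes that rose in siTead1/4 PMs had medians of 1.90 there and 1.82 in siControl, and genes that fell had -1.64 and -1.73. Over all genes tested the medians were 0.01 in siTead1/4 and 0.01 in siControl PMs.

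Genes of muscle and genes with no such role were among the 10 largest rises in the silenced cells. Myh4, which encodes the fast type IIb myosin heavy chain (mm9 chromosome 11, 67051314 to 67073948), went from 43.9 and 45.4 CPM to 9937 and 7837 CPM, a rise of 7.64 ± 0.36 (edgeR adjusted p = 1.6e-07). In siControl PMs it rose by 7.53 from 10.7 and 13.1 CPM to 2484 and 1902 CPM, so the silenced libraries were higher at both days while the rises were nearly equal in size. The myosin heavy chain genes are close copies of each other, and the split of reads among them is uncertain. Myoz1, a calcineurin-binding protein of the Z-disc, went from 2.92 and 2.63 CPM to 399 and 421 CPM (7.21 ± 0.24, edgeR adjusted p = 3.1e-08). Ip6k3, an inositol hexakisphosphate kinase of muscle, went from 0.514 and 0.373 CPM to 47.6 and 49.8 CPM (6.79 ± 0.18, edgeR adjusted p = 1.5e-08). For both genes the replicates of each day were close together.

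Sln, whose product sarcolipin inhibits the calcium pump of the sarcoplasmic reticulum, rose by 6.59 ± 0.35 from 2.19 and 3.22 CPM to 217 and 310 CPM. Chrne, the adult subunit of the muscle acetylcholine receptor, rose by 6.30 ± 0.47 from 0.140 and 0.157 CPM to 14.7 and 9.18 CPM. Fbp2, the muscle fructose bisphosphatase, rose by 7 ± 0.71 from 0.117 and 0.0981 CPM to 19.9 and 8.16 CPM. All 3 also rose in siControl PMs, by 5.96, 5.78 and 7.19. The kinase gene Wnk2 (7.21 ± 0.32), the tetraspanin gene Tspan8 (6.86 ± 0.79) and Gabrd, which encodes a GABA receptor subunit (6.33 ± 0.36), were also among the 10 and rose in siControl PMs too. Lsamp, a neuronal cell adhesion gene and the last of the 10, had no count and 5 counts at day 0 and 5.95 and 2.92 CPM at day 3, while the siControl libraries held at most 0.0728 CPM. Its difference between the siRNAs was not called (edgeR adjusted p = 0.65).

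Genes that started from at most 3 counts in both day 0 libraries made up 205 of the rises, and 38 of them had no count at day 0. Their folds are lower bounds, computed against 3 counts in each library. Atp1b4, a muscle protein related to the sodium pump beta subunits, was at least 273-fold higher at day 3, at 22.6 and 12.6 CPM. Myoz3, a relative of Myoz1, was at least 124-fold higher at 9.12 and 6.81 CPM, and Asb12, a subunit of ubiquitin ligases, at least 102-fold higher at 6.69 and 6.50 CPM. Agt, the precursor of angiotensin, was at least 87.8-fold higher and Tmem52 at least 23.7-fold higher. These genes were near the detection limit before differentiation in siControl PMs as well, with at most 0.0845 CPM in any library, and all 5 rose there.

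The strongest falls were of genes found in proliferating myoblasts of either siRNA. Fabp7, a fatty acid binding protein of neural precursors, went from 27.6 and 30.9 CPM to 0.0618 and 0.119 CPM (-8.32 ± 0.52, edgeR adjusted p = 8.0e-07). It had been at 4.49 and 4.03 CPM in siControl PMs at day 0, where it fell by 5.99. Cldn4, a tight junction protein, went from 24.7 and 33.3 CPM to 0.124 and 0.0949 CPM (-8.00 ± 0.40, edgeR adjusted p = 2.3e-07). Sp7, the osteoblast transcription factor osterix, went from 139 and 143 CPM to 0.7 and 0.973 CPM (-7.40 ± 0.28, edgeR adjusted p = 5.0e-08) and fell by 5.71 in siControl PMs. The differences between the siRNAs were -2.33 for Fabp7, -2.69 for Cldn4 and -1.69 for Sp7, and none was called (adjusted p = 0.40, 0.068 and 0.067).

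Sct, which encodes the hormone secretin, fell by 7.64 ± 0.45 from 125 and 235 CPM to 0.7 and 1.11 CPM, and by 7.47 in siControl PMs. The receptor genes Gpr97 and Gpr123, the sodium channel gene Scn9a, and Car8, Prr9 and Diras2 fell by between 5.96 and 7.12, and each fell in siControl PMs. A further 91 of the falls ended at 3 counts or fewer in both day 3 libraries. Selp, the adhesion molecule P-selectin, went from 18.7 and 16.5 CPM to no count and was at least 265-fold lower. Tcerg1l was at least 100.4-fold lower, the transcription factor gene Batf3 at least 16.1-fold, the muscle growth factor gene Fgf6 at least 12.9-fold and the BMP antagonist gene Chrdl2 at least 12.7-fold.

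**Figure D2:**
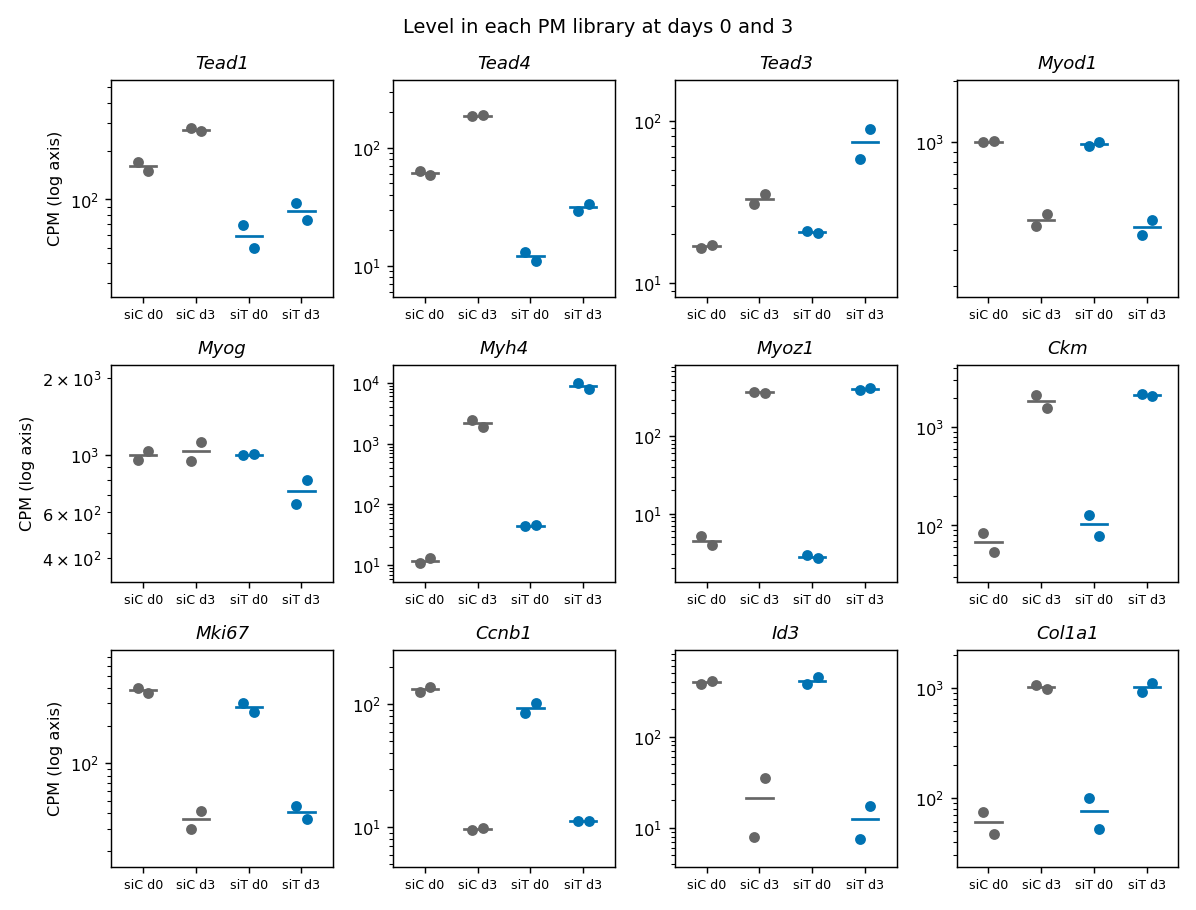
Level of 12 genes in each of the 8 PM libraries, in CPM on a log axis, 1 panel per gene and 1 point per library, by siRNA and day. Tead1 and Tead4 are lower after silencing at both days, Myh4, Myoz1 and Ckm rise and Mki67, Ccnb1 and Id3 fall in both, and the 2 libraries of Id3 at day 3 are 7.49 and 17.4 CPM in siTead1/4 PMs.

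Most genes of the contractile apparatus rose in the silenced cells, while their levels lay mostly below siControl at both days. Of 27 genes of the thick filament and M-band, 22 rose and none fell in siTead1/4 PMs, with a median change of 2.36, and 22 rose in siControl PMs with a median of 2.32. The rises were shared by 20 genes. At day 0 the mean of the silenced cells was below siControl for 21 of the 27 genes (median -0.43). At day 3 it was above siControl for 8 (median -0.39). The effect of the siRNAs was called for 6 of the 27 at day 0 and for 7 at day 3. For this and the next lists, the shares of all genes tested with such a call or order are not given. The counts therefore do not show that a list stands out. The embryonic myosin Myh3 rose by 1.56 ± 0.22 from 3439 and 2408 CPM to 10172 and 7051 CPM, and the perinatal myosin Myh8 by 3.20 ± 0.22 from 325 and 333 CPM to 3135 and 2899 CPM. Myh1, the fast type IIx myosin, rose by 2.36 ± 0.21 from 228 and 316 CPM to 1390 and 1396 CPM, and its siControl libraries were higher at both days, at 827 and 948 CPM and then 7185 and 6838 CPM. The order of the siRNAs was thus opposite for Myh1 and Myh4 at day 3, while the difference of the change was -0.63 for Myh1 and 0.11 for Myh4, neither of them called. Mybpc2, the fast myosin binding protein C, rose by 5.20 ± 0.51 and reached 63.5 and 54.6 CPM, against 156 and 166 CPM in siControl PMs. Mylk2, the skeletal myosin light chain kinase, went from 16.2 and 22.4 CPM to 40.8 and 28.9 CPM (0.85 ± 0.19) and was called in siControl PMs only, as was Myh6.

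Mybph, a myosin binding protein of the fast fibre, was the one gene of this list with a called difference. It rose from 84.4 and 86.6 CPM to 1452 and 1549 CPM in siTead1/4 PMs (4.13 ± 0.12) and from 255 and 268 CPM to 1349 and 1268 CPM in siControl PMs (2.32). The silenced cells started lower and ended slightly higher, and the difference was 1.81 (edgeR adjusted p = 0.0015).

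Of 19 thin filament genes, 17 rose (median 2.06), compared with 16 in siControl PMs (median 2.31), all 16 among the 17. The silenced cells were below siControl for 13 of the 19 at day 0 and above it for 4 at day 3, with medians of -0.18 and -0.19. The effect of the siRNAs was called for 0 of the 19 at day 0 and for 2 at day 3. Acta1, the skeletal alpha-actin, rose by 1.92 ± 0.14 from 2761 and 2224 CPM to 9126 and 9770 CPM. Tpm3, the slow tropomyosin gene whose products are also made in non-muscle cells, fell under both siRNAs, by 1.35 ± 0.11 after silencing. Of 38 genes of the Z-disc and costamere, 28 rose (median 1.81), 27 of them among the 29 that rose in siControl PMs, and 10 did not rise. The silenced cells were below siControl for 36 of the 38 at day 0 and above it for 6 at day 3, with medians of -0.39 and -0.37. The effect of the siRNAs was called for 5 of the 38 at day 0 and for 5 at day 3. Dmd, which encodes dystrophin, rose by 3.64 ± 0.29 from 26.2 and 15.8 CPM to 292 and 230 CPM. Fhl1, a LIM protein, was at 54.7 and 36.9 CPM and then at 66.0 and 64.6 CPM after silencing (0.51 ± 0.21) and was called in siControl PMs only. Ankrd2, a stretch-responsive protein, fell after silencing at low levels (1.66 and 1.39 to 0.556 and 0.688 CPM), a call that was lost when any 1 of the 4 siTead1/4 libraries was left out.

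Calcium handling and excitation-contraction coupling gave the same calls under both siRNAs. Of 31 genes, 27 rose in siTead1/4 PMs (median 2.47) and the same 27 rose in siControl PMs (median 2.56). Atp2a1, the fast calcium pump, rose by 3.63 ± 0.16 from 477 and 403 CPM to 5568 and 5325 CPM, and Ryr1, the calcium release channel, by 2.49 ± 0.23 from 424 and 271 CPM to 2138 and 1760 CPM. Casq1, the calcium store protein calsequestrin, rose by 4.84 ± 0.33 from 57.7 and 30.9 CPM to 1234 and 1301 CPM, and by 3.40 in siControl PMs, where it started from 156 and 92.2 CPM. Of 19 genes of the neuromuscular junction 9 rose (median 0.82), 7 of which were among the 8 that rose in siControl. Ache, acetylcholinesterase, rose by 5.06 ± 0.33 from 7 and 5.98 CPM to 260 and 173 CPM. Colq, its collagen tail, rose by 6.10 ± 0.41 from 0.187 and 0.314 CPM to 22.4 and 13.0 CPM and by 3.42 in siControl PMs, a difference of 2.68 that was not called (edgeR adjusted p = 0.057).

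Most glycolytic and creatine kinase genes rose, and few respiratory chain genes did. Of 24 genes of muscle glycolysis and the phosphagen system, 18 rose (median 2.07), and the same 18 rose in siControl PMs (median 1.98). Ckm, the muscle creatine kinase, rose by 4.36 ± 0.34 from 129 and 77.9 CPM to 2153 and 2092 CPM, and Pygm, the muscle glycogen phosphorylase, by 3.76 ± 0.14 from 165 and 154 CPM to 2204 and 2116 CPM. Of 51 respiratory chain genes, 49 were higher at day 3 after silencing, with a median of 0.59, and 4 were called (Ndufa5, Cox6a2, Cox7a1 and Cox8b), beside 9 with a median of 0.76 in siControl PMs, where 17.5% of all genes tested rose. The difference between the siRNAs was called for none of the 51 (smallest edgeR adjusted p = 0.13). It was below 0 for 46 of the 51 genes (median -0.17), while 51.8% of all genes tested had a difference above 0. At day 3 the mean of the silenced cells was above siControl for 3 of the 51. Cox6a2, the muscle form of a cytochrome oxidase subunit, rose by 3.72 ± 0.22 from 15.6 and 15.0 CPM to 184 and 218 CPM. Ndufs4, a complex I subunit, went from 55.1 and 54.9 CPM to 109 and 110 CPM, a change of 0.99 ± 0.11 just under the size asked for, while in siControl PMs it rose by 1.26 (difference adjusted p = 0.52).

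Of 27 regulators and enzymes of oxidative metabolism, 9 rose after silencing (median 0.84) and 15 in siControl PMs (median 1.11), including all 9. The 6 that were called in siControl PMs only included the fatty acid oxidation genes Acadm, Acadvl, Hadha and Hadhb and the fatty acid transporter gene Cd36. Acadm, medium-chain acyl-CoA dehydrogenase, went from 87.5 and 75.1 CPM to 125 and 116 CPM (0.57 ± 0.13) after silencing and from 70.5 and 55.5 CPM to 169 and 149 CPM (1.33) in siControl PMs. Cd36 went from 10.1 and 7.38 CPM to 14.7 and 16.5 CPM (0.84 ± 0.31) and in siControl PMs from 7.75 and 5.07 CPM to 18.7 and 37.9 CPM. The difference was not called for either gene (edgeR adjusted p = 0.091 and 0.23). Esrrb, a nuclear receptor that activates mitochondrial genes, rose by 1.5 ± 0.34 from 2.22 and 3.90 CPM to 10.5 and 6.88 CPM, and by 3.57 in siControl PMs (difference adjusted p = 0.092).

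**Figure D3:**
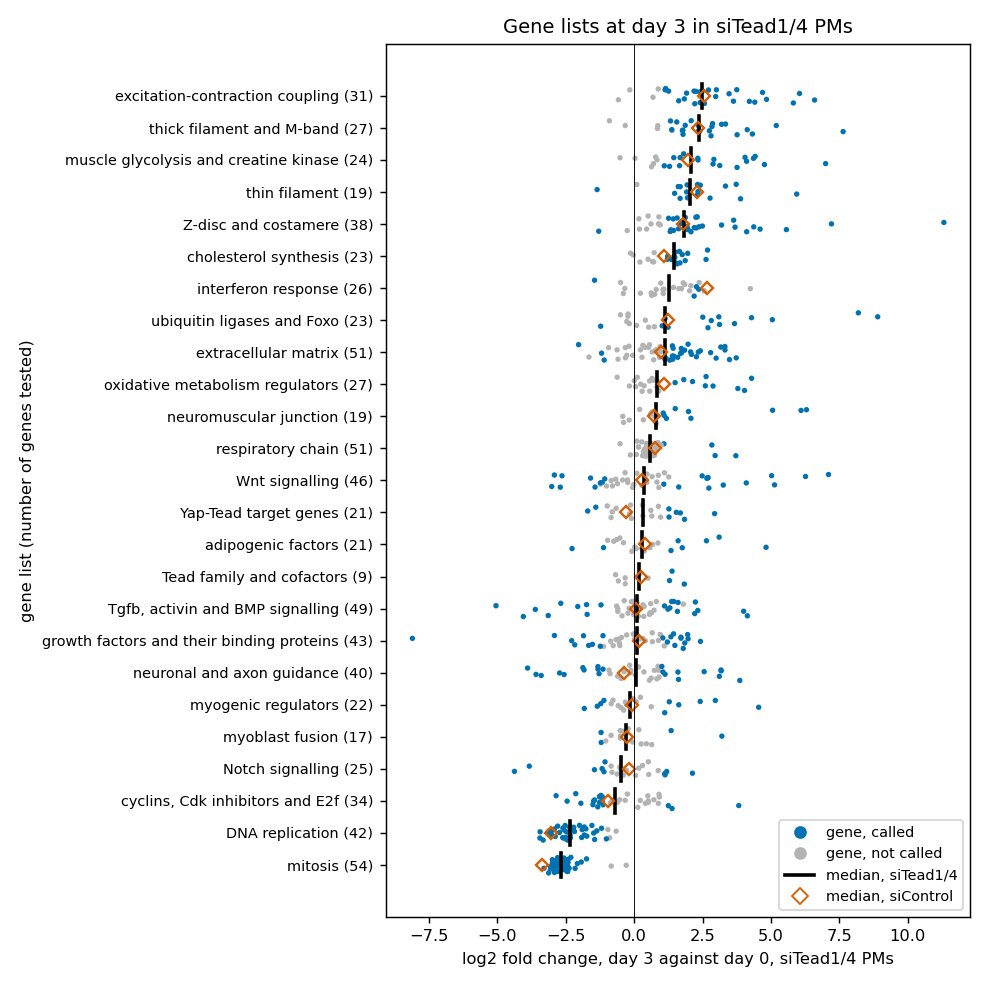
Log2 change from day 0 to day 3 of each tested member of the pathway lists in siTead1/4 PMs, 1 point per gene, with the list's median as a bar and its median in siControl PMs as an open diamond. The muscle lists lie above 0 and the replication and mitosis lists below 0 under both siRNAs, and the largest gap between the medians is in the interferon list (1.26 after silencing and 2.66 in siControl).

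Most cell cycle genes fell in the silenced cells, with medians nearer 0 than in siControl. Of 42 DNA replication genes, 39 fell in siTead1/4 PMs (median -2.33), compared with 41 in siControl PMs (median -3.02). Rrm2, a subunit of ribonucleotide reductase, fell by 3.32 ± 0.16 from 333 and 457 CPM to 42.6 and 36.4 CPM, and by 4.00 in siControl PMs from 710 and 788 CPM to 47.2 and 46.3 CPM. Mcm5, a subunit of the replicative helicase, fell by 3.02 ± 0.19 from 98.5 and 122 CPM to 14 and 13.2 CPM, and by 3.63 in siControl PMs from 162 and 169 CPM to 13.1 and 13.6 CPM. In both cases the silenced libraries were lower at day 0 and the day 3 libraries of both siRNAs were close. Of 54 mitosis genes, 52 fell (median -2.67), compared with 53 in siControl PMs (median -3.36). Mki67, a marker of cycling cells, fell by 2.78 ± 0.36 from 301 and 258 CPM to 45.5 and 35.9 CPM. Ccnb1, the mitotic cyclin, fell by 3.05 ± 0.29 from 84.2 and 102 CPM to 11.3 and 11.2 CPM, against 126 and 138 and then 9.54 and 9.90 CPM in siControl PMs.

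The difference of the day 3 change was positive for 42 of 42 replication genes (median 0.54) and for 53 of 54 mitosis genes (median 0.66), and none of them was called (smallest edgeR adjusted p = 0.074 and 0.11). At an unadjusted p under 0.05 there were 24 and 13 of them, beside 13.4% of all genes tested and 21.6% of all genes that fell in siControl PMs. Among the latter 80.5% had a positive difference. At day 0 the mean of the silenced cells was below siControl for 42 of 42 replication genes (median -0.43) and 53 of 54 mitosis genes (median -0.48). At day 3 it was above siControl for 32 and 50 genes, with medians of 0.12 and 0.18. In these medians, the gap between the siRNAs was wider at day 0 than at day 3. The effect of the siRNAs was called for no gene of either list at day 0, and at day 3 for 1 mitosis gene and no replication gene. Cdc25b, a phosphatase that activates Cdk1, was the mitosis gene furthest from this, at 79.5 and 95.8 CPM and then at 46.4 and 51.9 CPM after silencing (-0.83 ± 0.26), and at 104 and 117 and then 17.7 and 27.4 CPM in siControl PMs, where it fell by 2.29.

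Of 34 cyclins, Cdk inhibitors and E2f factors, 15 fell and 3 rose, and in siControl PMs 17 fell and 5 rose. Among all genes tested, 12.4% fell and 15.9% rose after silencing. Cdkn1a, the Cdk inhibitor p21, rose by 1.39 ± 0.14 from 753 and 710 CPM to 1893 and 1939 CPM, and Cdkn1c, the inhibitor p57, by 3.82 ± 0.34 from 20.3 and 35.6 CPM to 329 and 464 CPM. Both rose in siControl PMs, by 1.5 and 3.36. Ccnd1, cyclin D1, fell by 1.44 ± 0.27 from 523 and 481 CPM to 200.03 and 169.6 CPM, and reached 94.5 and 78.5 CPM in siControl PMs. The siControl libraries at day 3 lay below the silenced ones, and the difference of 1.13 was not called (edgeR adjusted p = 0.22). In the silenced cells the transcription factor gene E2f6 and the antiproliferative gene Btg2, which rose in siControl PMs, had log2 changes of 0.92 ± 0.10 and 0.72 ± 0.16 that were not called.

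The myogenic regulators switched in the same pattern under both siRNAs. Of 22 listed, 6 rose and 4 fell in siTead1/4 PMs, beside 15.9% and 12.4% of all genes tested. All 5 that rose and all 4 that fell in siControl PMs did the same after silencing. Myod1 fell by 1.34 ± 0.24 from 958 and 1005 CPM to 354 and 420 CPM, and by 1.27 in siControl PMs. Myf5, another early regulator, fell by 1.82 ± 0.25 from 112 and 144 CPM to 31.8 and 40.8 CPM. Mef2c rose by 2.97 ± 0.14 from 167 and 139 CPM to 1255 and 1140 CPM, and Myf6, the late regulator Mrf4, by 2.42 ± 0.16 from 14.5 and 12.2 CPM to 67.3 and 75.3 CPM. Myog, already high at day 0, went from 1003 and 1009 CPM to 647 and 802 CPM after silencing (-0.47 ± 0.17) and from 958 and 1038 CPM to 949 and 1121 CPM in siControl PMs, a difference of -0.53 that was not called (edgeR adjusted p = 0.37). The additional rise after silencing was Heyl, a Notch target.

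Of 17 fusion genes tested, 2 rose and 2 fell, beside 15.9% and 12.4% of all genes tested. Tmem8c, which encodes the fusion protein myomaker, rose by 1.35 ± 0.20 from 271 and 315 CPM to 673 and 826 CPM, and by 1.54 in siControl PMs, where it reached 1183 and 1035 CPM. Itga9 rose, and Kirrel and Cdon, adhesion proteins of the immunoglobulin family, fell under both siRNAs. In siControl PMs 5 genes of the list fell, and 3 without replicate 1 of siControl day 3 or without replicate 2 of siControl day 0. Cd9, a tetraspanin of the cell surface, went from 123 and 118 CPM to 195 and 181 CPM after silencing and from 119 and 108 CPM to 89.6 and 98.8 CPM in siControl PMs. Its difference of 0.91 had an edgeR adjusted p of 0.032 and did not reach the size asked for.

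Known Yap-Tead target genes did not move as one. Of 21 tested, 6 rose and 2 fell in siTead1/4 PMs with a median change of 0.32, and in siControl PMs 3 rose and 5 fell with a median of -0.28. Ctgf, a secreted matricellular protein, rose by 2.94 ± 0.35 from 18.7 and 12.2 CPM to 148 and 88.4 CPM, and by 3.04 in siControl PMs from 19.1 and 17.0 CPM to 194 and 104 CPM. Crim1, a membrane protein that binds BMPs, rose by 1.69 ± 0.31 from 12.6 and 11 CPM to 43.7 and 32.3 CPM and was not called in siControl PMs. Ankrd1, a muscle ankyrin repeat protein, went from 378 and 452 CPM to 267 and 260 CPM (-0.65 ± 0.23), whereas in siControl PMs it fell, from 595 and 746 CPM to 328 and 318 CPM. The difference was above 0 for 15 of the 21 genes and was called for none (smallest edgeR adjusted p = 0.085), with 8 at an unadjusted p under 0.05. Of all genes tested 51.8% had a difference above 0 and 13.4% an unadjusted p under 0.05.

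Among the signalling lists, changes went both ways, as they did over all genes tested, of which 15.9% rose and 12.4% fell after silencing. Of 49 genes of Tgfb, activin and BMP signalling, 12 rose and 9 fell, and in siControl PMs 8 rose and 10 fell, 6 and 9 of them shared. The 9 falls included the Id genes, BMP-induced inhibitors of myogenic factors, and the inhibitory Smad genes Smad6 and Smad7. Id3 fell by 5.04 ± 0.88 from 374 and 445 CPM to 7.49 and 17.4 CPM, with replicate 2 the higher one at day 3, as in siControl PMs (7.89 and 34.9 CPM). Gdf11, a relative of myostatin, rose by 1.31 ± 0.18 from 48.1 and 51.2 CPM to 136 and 110 CPM and was at 99 and 80.6 and then 81.7 and 107 CPM in siControl PMs (difference 1.24, edgeR adjusted p = 0.060). Of 46 Wnt genes, 13 rose and 9 fell, and 14 rose and 10 fell in siControl PMs. The 13 rises were all shared with siControl. Axin2, a target and inhibitor of Wnt signalling, rose by 5.13 ± 0.37 from 0.163 and 0.196 CPM to 5.97 and 6.93 CPM, and by 4.14 in siControl PMs. With at least 10 counts asked for in every library, 4 Wnt genes rose after silencing and 5 in siControl PMs.

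Of 25 Notch genes, 6 fell, all of them among the 8 that fell in siControl PMs. Lfng, a glycosyltransferase that modifies Notch, fell by 4.37 ± 0.27 from 41.3 and 47.7 CPM to 2.12 and 2.18 CPM, and the target gene Hey1 by 3.83 ± 0.36 from 88.6 and 88.9 CPM to 5.72 and 6.78 CPM. The rises of Hey2, Heyl, Mfng and Numbl were called after silencing and not in siControl PMs, and none of these differences was called (the smallest adjusted p of the list was 0.22). This count of 4 became 1 without replicate 1 or 2 of day 0 or without replicate 2 of day 3, and 2 without replicate 1 of day 3. Of 43 growth factor genes, 12 rose and 9 fell, beside 11 and 13 in siControl PMs. Igf2, the growth factor made by differentiating muscle cells, rose by 1.97 ± 0.19 from 1775 and 1329 CPM to 6844 and 5333 CPM, and by 1.33 in siControl PMs.

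Matrix genes rose in about the same number under both siRNAs. Of 51, 26 rose and 3 fell in siTead1/4 PMs (median 1.12), and 24 rose and 4 fell in siControl PMs (median 0.99), with 21 rises shared. Col1a1, a chain of type I collagen, rose by 3.73 ± 0.37 from 101 and 52.8 CPM to 926 and 1117 CPM, and Lox, which crosslinks collagen, by 3.17 ± 0.22 from 17.2 and 22.7 CPM to 140 and 220 CPM. Of the fibroblast markers, whose values are given above, 2 rose and 2 fell. Nid2, a basement membrane protein, rose after silencing, from 47.4 and 49.4 CPM to 97.3 and 163 CPM (1.43 ± 0.33), and was at 84.3 and 105 and then 57.1 and 105 CPM in siControl PMs. Its difference of 1.65 was not called (edgeR adjusted p = 0.15).

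Cholesterol synthesis genes rose in slightly greater number after silencing. Of 23, 16 rose (median 1.47), including all 13 that rose in siControl PMs (median 1.08). The difference was above 0 for 22 of 23, none called (smallest edgeR adjusted p = 0.069). It was above 0 for 51.8% of all genes tested and for 31.9% of those that rose in siControl PMs. Dhcr7, the last enzyme of the pathway, rose by 2.63 ± 0.23 from 21.9 and 20.1 CPM to 119 and 140 CPM. Of 23 ubiquitin ligase and Foxo genes 13 rose and 1 fell, the same 13 being among the 14 that rose in siControl PMs. Trim63, the atrophy-related ligase Murf1, rose by 3.10 ± 0.13 from 9.50 and 8.94 CPM to 85.6 and 72.1 CPM. Of 21 adipogenic factors, 6 rose and 2 fell, beside 15.9% and 12.4% of all genes tested. Both falls, Pparg and Cebpa, were shared with siControl PMs. One of these 2 falls was lost without replicate 1 of day 3 or replicate 2 of day 0.

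The day 3 changes of neuronal and axon guidance genes were as mixed as in siControl PMs. Of 40 tested, 10 rose and 11 fell after silencing, and 12 rose and 10 fell in siControl PMs, 7 and 9 of them shared. Among all genes tested, 15.9% rose and 12.4% fell after silencing, and 17.5% rose and 14.9% fell in siControl PMs. A change over days does not show an effect of the siRNAs that is present at both. The silenced cells were below siControl for 16 of the 40 at day 0 and above it for 28 at day 3, with medians of 0.22 and 0.23. The effect of the siRNAs was called for 7 of the 40 at day 0 and for 5 at day 3, with no share over all genes tested beside it. Dcx, a microtubule protein of migrating neurons, rose by 3.18 ± 0.66 from 3.83 and 3.10 CPM to 25.1 and 37.6 CPM, and was at 2.77 and 6.99 and then 3.19 and 16.8 CPM in siControl PMs (1.06, not called). Its difference of 2.12 was not called either (edgeR adjusted p = 0.34). Nes, the intermediate filament nestin, rose by 1.05 ± 0.16 from 960 and 852 CPM to 1910 and 1851 CPM. Tubb3, a neuronal beta-tubulin, was the one member with a called difference (1.32, adjusted p = 0.040). It was at 29.4 and 29.0 CPM and then at 36.9 and 38.2 CPM after silencing, and at 57.3 and 58.1 and then 30.6 and 28.9 CPM in siControl PMs, so that the silenced cells were lower at day 0 and higher at day 3.

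The interferon response was the list in which the siRNAs were furthest apart by count. Of 26 genes, 3 rose (Ddx58, H2-K1 and Gbp2) and Ifit2 fell in siTead1/4 PMs with a median of 1.26, while 20 rose in siControl PMs with a median of 2.66. The difference was below 0 for 25 of 26 genes, with a median of -1.44. It was called for none (smallest edgeR adjusted p = 0.18), with 5 at an unadjusted p under 0.05. Of all genes that rose in siControl PMs, 31.9% had a difference above 0 and 23.2% an unadjusted p under 0.05, with a median difference of -0.26. H2-K1, a class I histocompatibility gene, rose by 2.19 ± 0.11 from 13.2 and 13.0 CPM to 59.9 and 59.8 CPM, against 86.4 and 80.6 CPM in siControl PMs at day 3. Ifit2 fell by 1.44 ± 0.24 from 9.36 and 8.61 CPM to 3.21 and 3.39 CPM. For these 2 genes the replicates were close.

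For most of the list they were not. Isg15, a ubiquitin-like protein, was at 1.10 and 1.35 CPM at day 0 and at 0.638 and 9.80 CPM at day 3 in siTead1/4 PMs, and at 2.07 and 0.507 and then 3.43 and 37.5 CPM in siControl PMs. The second day 3 replicate was the high one under either siRNA. The same order held for 25 of the 26 genes in siTead1/4 PMs and for 25 of 26 in siControl PMs. The summed level of the list was 199 and 196 CPM at day 0 and 201 and 346 CPM at day 3 after silencing, and 195 and 178 CPM and then 292 and 713 CPM in siControl PMs. Without replicate 1 of siTead1/4 day 3, 11 genes rose, and without replicate 2, 1 gene. In siControl PMs 8 rose without replicate 2 of day 3 and 9 without replicate 2 of day 0. With no filter on low counts 10 rose after silencing, and with at least 10 counts asked for in every library 11 rose in siControl PMs.

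**Figure D4:**
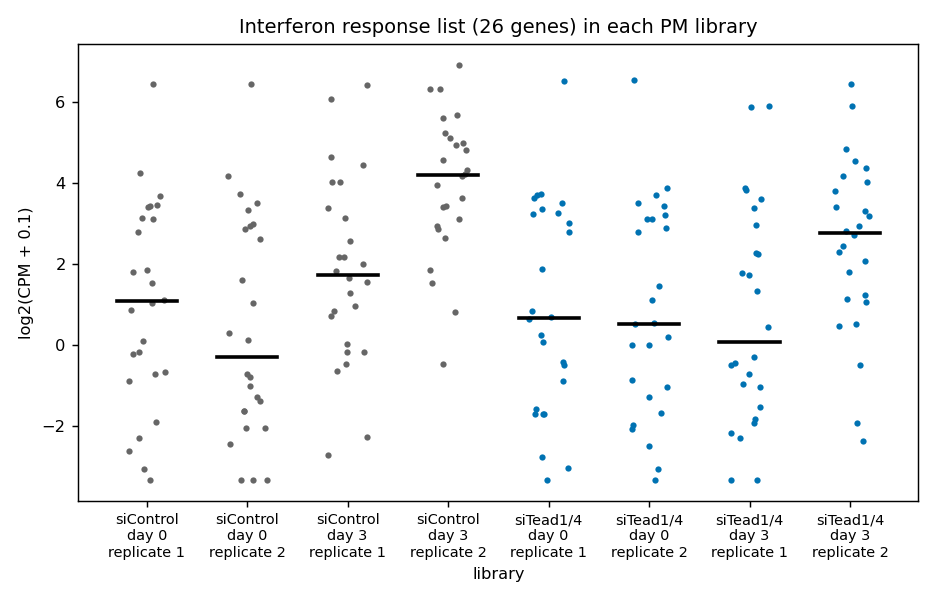
Level of the 26 interferon response genes in each of the 8 PM libraries, as log2(CPM + 0.1), 1 point per gene and a bar for the median. Replicate 2 of day 3 is the highest library under each siRNA, with medians of 2.76 in siTead1/4 and 4.21 in siControl PMs, while replicate 1 of day 3 has 0.09 and 1.74.

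The day 3 change was called different between the siRNAs for 53 genes. The difference, taken as the change in siTead1/4 PMs minus that in siControl PMs, was called positive for 37 genes (0.229%) and negative for 16 (0.0991%), while 2170 genes had an unadjusted p under 0.05 and 61 an adjusted p under 0.05. These counts depended on the analysis. They were 152 and 119 with DESeq2, 6 and 1 when the 12 C2C12 libraries of the series were fitted along with the PM libraries, and 2 to 27 and 0 to 9 when any 1 of the 8 libraries was left out. Of the 37 positive genes, 14 rose in siTead1/4 PMs and not in siControl, 9 rose in both, 9 fell in siControl only, 1 fell in both and 4 were called in neither. Of the 16 negative genes, 4 rose in siControl only, 7 rose in both, 2 fell in siTead1/4 only, 1 fell in both and 2 were called in neither. Of the 814 genes that rose only in siControl PMs, 4 had a called difference, and of the 737 that fell only there, 9. For the others, the call in one arm and not in the other does not show a difference.

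The siRNAs also differed at day 0 for many of these genes. Of the 37 positive genes, 30 were lower in the silenced than in the siControl cells at day 0 and 35 were higher at day 3. Of the 16 negative genes, 15 were higher at day 0 and 12 were lower at day 3. These orders are in part fixed by the choice of the genes, since a positive difference asks for a lower start or a higher end. The effect of the siRNAs had an edgeR adjusted p under 0.05 at day 0 for 18 of the 37 and 12 of the 16. At day 3 it did for 26 and 9. These tests use the same libraries that chose the genes. The calls of the single genes below depended on the setting as well. DESeq2 made all 53 calls again, and the fit with the C2C12 libraries made 7 of them. Without any 1 of the 8 libraries a group holds 1 library, so only sizes are given for such fits. The difference of Cacna1h was then 2.96 to 3.76, and that of Clip4 -3.72 to -2.54.

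Cacna1h, a T-type calcium channel (mm9 chromosome 17, 25511230 to 25570728), had the largest positive difference. It went from 9.87 and 5.69 CPM to 90.4 and 70.7 CPM in siTead1/4 PMs (3.38 ± 0.39) and stayed at 6.18 and 5.49 and then 5.92 and 6.29 CPM in siControl PMs. The difference was 3.31 ± 0.53 (edgeR adjusted p = 0.038), and the silenced libraries at day 3 stood apart from all others. Col24a1, a fibrillar collagen, went from 5.79 and 6.06 CPM to 44.3 and 49.9 CPM and in siControl PMs from 2.54 and 2.65 CPM to 2.65 and 4.32 CPM (difference 2.56 ± 0.33, edgeR adjusted p = 0.019). B3galt2, a galactosyltransferase, went from 15.7 and 13.0 CPM to 114 and 102 CPM and in siControl PMs from 15.1 and 14.7 CPM to 22.4 and 33.1 CPM (difference 2.01 ± 0.26, edgeR adjusted p = 0.021). All 3 rose in the silenced cells and were not called in siControl PMs.

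Tceal7 was induced in both and more so after silencing. It rose from 16.1 and 15.6 CPM to 469 and 406 CPM in siTead1/4 PMs and from 16.8 and 18.6 CPM to 89.7 and 100.3 CPM in siControl PMs (difference 2.36 ± 0.19, edgeR adjusted p = 0.0015). Ramp1, which pairs with the calcitonin receptor-like receptor, rose from 1.61 and 1.45 CPM to 78.0 and 84.8 CPM, against 1.61 and 2.17 and then 9.08 and 19.6 CPM (difference 2.79 ± 0.46, edgeR adjusted p = 0.040). For both genes the day 0 libraries of both siRNAs lay close together, and at day 3 they were apart. Abra, a protein that links actin to Srf-dependent transcription, instead reached 38.0 and 44.1 CPM, as in siControl PMs (37.9 and 43.4 CPM), from a lower start of 0.560 and 0.628 CPM against 2.33 and 4.23 CPM (difference 2.45 ± 0.35, edgeR adjusted p = 0.032). St8sia4, Smoc1, Npr3 and Samd7 rose after silencing and were not called in siControl PMs, with differences of 2.50, 2.38, 2.02 and 3.00.

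Other genes with a positive difference fell in siControl PMs and were not called after silencing. Dlk2, a relative of the Notch ligands, was at 6.72 and 7.75 CPM and then at 8.89 and 11.9 CPM in siTead1/4 PMs, and fell from 12.2 and 12.5 CPM to 1.73 and 2.21 CPM in siControl PMs (difference 3.17 ± 0.56, edgeR adjusted p = 0.048). Fabp5, a fatty acid binding protein, was at 34.8 and 40.4 and then 21.6 and 22.9 CPM after silencing (-0.76 ± 0.17), and fell from 76.2 and 72.7 CPM to 10.1 and 12.0 CPM in siControl PMs (difference 1.99, adjusted p = 0.017). Stmn1, a microtubule regulator of dividing cells, went from 47.0 and 50.5 CPM to 29.7 and 25.1 CPM (-0.83 ± 0.15), and fell from 59.0 and 63.8 CPM to 7.83 and 10.9 CPM in siControl PMs (difference 1.88, adjusted p = 0.013). In these 3 genes the silenced cells were below siControl at day 0 and above it at day 3. Asf1b, a histone chaperone used in replication, showed the same order, with a difference of 1.36 (adjusted p = 0.012), and so did the proteoglycan gene Gpc6, with 1.37 (adjusted p = 0.032). Pepd (1.15), Dock11 (1.69) and St18 (3.24), the last at no more than 1.56 CPM, complete the genes of this kind that were named.

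Clip4, a CAP-Gly protein (mm9 chromosome 17, 72119042 to 72207691), had the largest negative difference. In siControl PMs it rose from 4.68 and 5.72 CPM to 41.9 and 57.3 CPM, and in siTead1/4 PMs it was at 4.48 and 7.24 CPM and then at 4.30 and 9.70 CPM (0.24 ± 0.36). The difference was -3.01 ± 0.51 (edgeR adjusted p = 0.044), with all 4 silenced libraries below both siControl libraries of day 3. Ptpn3, a tyrosine phosphatase, went from 3.90 and 4.77 CPM to 4.76 and 5.91 CPM (0.30 ± 0.16), while it rose from 3.96 and 4.42 CPM to 12.2 and 13.5 CPM in siControl PMs (difference -1.32 ± 0.23, edgeR adjusted p = 0.048). The day 0 levels of both genes overlapped between the siRNAs. Itga11, a collagen-binding integrin, rose less after silencing, from 0.560 and 0.588 CPM to 2.08 and 2.40 CPM compared with 0.254 and 0.254 CPM to 6.81 and 6.72 CPM (difference -2.77 ± 0.30, edgeR adjusted p = 0.012).

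Other genes of this sign already stood higher at day 0 after silencing. Hspa2, a heat shock protein, was at 17.5 and 14.3 CPM and then at 15.9 and 18.4 CPM in the silenced cells, and went from 8.47 and 6.65 CPM to 22.9 and 20.8 CPM in siControl PMs (difference -1.42 ± 0.24, edgeR adjusted p = 0.044). Atp1b2, a beta subunit of the sodium pump, rose in both, from 16.8 and 18.5 CPM to 333 and 303 CPM after silencing and from 2.43 and 3.38 CPM to 122 and 134 CPM in siControl PMs (difference -1.30 ± 0.22, adjusted p = 0.040). Its silenced libraries were above siControl at both days. Pdzrn3, a ubiquitin ligase of the developing muscle, rose from 21.2 and 20 CPM to 63.8 and 58.6 CPM, and from 10.1 and 10.7 CPM to 85.6 and 75.6 CPM in siControl PMs (difference -1.38 ± 0.16, edgeR adjusted p = 0.012). Pik3ip1 and Cib2 rose in both with differences of -1.91 and -1.07. Dhrs3, a retinal reductase, fell after silencing only, from 4.55 and 4.88 CPM to 0.803 and 0.925 CPM (difference -2.84 ± 0.41, edgeR adjusted p = 0.032), and Whrn, a scaffold protein, from 46.2 and 47.8 CPM to 18.8 and 20.8 CPM (difference -1.31).

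**Figure D5:**
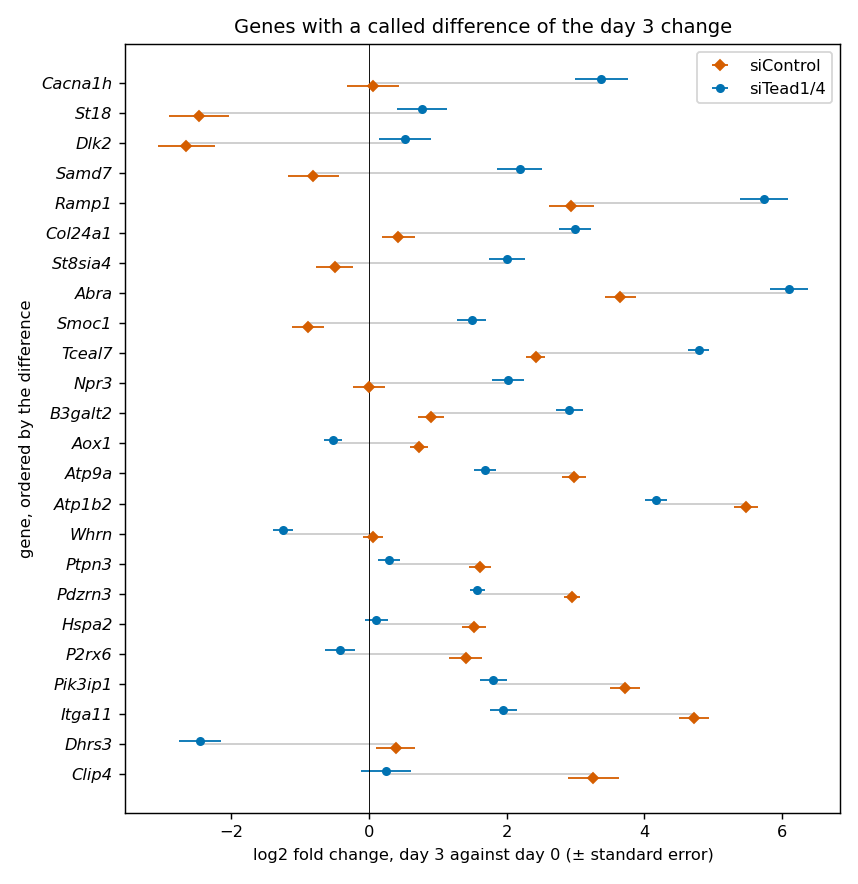
Log2 change from day 0 to day 3 with its standard error in siControl and siTead1/4 PMs for the 12 genes with the largest positive and the 12 with the largest negative called difference. Cacna1h and Col24a1 lie near 0 in siControl (0.06 and 0.43) and at 3.38 and 2.99 after silencing, and Clip4 lies at 3.26 in siControl and at 0.24 after silencing.

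Since Tead factors bind the M-CAT element, the letters CATTCC, or GGAATG on the other strand, were looked for in the 250 bases before the start of the 11 genes that rose in siControl PMs with a negative difference. RefSeq promoters of the build GRCm38.p6 were at hand for 10 of them and 3 held the letters. Of all 27025 genes with such a promoter, 3880 (14.4%) held them, and 3979 (14.7%) held the E-box letters CAGCTG, bound by myogenic factors. The windows of the 3 genes are printed 5′ to 3′ on the strand of the gene with the match in capitals. They are a description of the letters and not of binding. The letters leave out the last base of the M-CAT element, which the paper gives as CATTCCA/T. With that base, the matches of P2rx6 and Atp9a have the letters of the element, and that of Art5, which reads CATTCCC, does not. P2rx6, an ATP-gated channel subunit, has the match 172 bases before the start in chr16:17561635-17561884 (plus strand), Atp9a, a phospholipid flippase, 188 bases before one of its 4 starts in chr2:168742137-168742386 (minus strand), and Art5, an ADP-ribosyltransferase, 230 bases before the start in chr7:102100230-102100479 (minus strand). The Atp9a window also holds the E-box letters, which follow the match directly.
P2rx6: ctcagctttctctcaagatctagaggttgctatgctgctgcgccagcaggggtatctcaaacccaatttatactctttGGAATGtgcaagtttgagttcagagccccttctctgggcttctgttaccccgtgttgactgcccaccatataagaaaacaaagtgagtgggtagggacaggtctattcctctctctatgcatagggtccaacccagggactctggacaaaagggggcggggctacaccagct
Atp9a: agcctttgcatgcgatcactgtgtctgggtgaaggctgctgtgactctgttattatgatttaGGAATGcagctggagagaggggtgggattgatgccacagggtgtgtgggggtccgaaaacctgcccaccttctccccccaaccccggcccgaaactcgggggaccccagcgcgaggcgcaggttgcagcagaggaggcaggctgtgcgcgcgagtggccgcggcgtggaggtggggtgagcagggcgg
Art5: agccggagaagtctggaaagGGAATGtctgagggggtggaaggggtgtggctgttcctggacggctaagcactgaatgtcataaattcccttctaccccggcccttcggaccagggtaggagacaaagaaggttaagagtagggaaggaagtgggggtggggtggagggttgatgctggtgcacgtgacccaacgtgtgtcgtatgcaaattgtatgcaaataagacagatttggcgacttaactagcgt

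P2rx6 was at 6.70 and 6.57 CPM at day 0 and at 4.61 and 5.34 CPM at day 3 after silencing (-0.42 ± 0.22), and rose from 1.76 and 1.66 CPM to 5.32 and 3.76 CPM in siControl PMs (difference -1.82 ± 0.32, edgeR adjusted p = 0.049). Atp9a rose in both, from 38.6 and 40.9 CPM to 129 and 127 CPM after silencing and from 7.85 and 10.2 CPM to 75.0 and 66.6 CPM in siControl PMs (difference -1.29 ± 0.23, edgeR adjusted p = 0.048). Both genes were higher after silencing at day 0, with no overlap of the libraries. Art5 had a difference of -1.11 (edgeR adjusted p = 0.046).

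Of the genes with the largest siControl rises that rose again after silencing, Thrsp, a regulator of lipid synthesis, did so from 0.187 and 0.196 CPM to 12.4 and 11 CPM (5.91 ± 0.38), compared with 31.5 and 28.4 CPM reached in siControl PMs. Myoz3, Asb12, Agt and Atp1b4 are among them. Gdpd4 went from at most 1 count to 1.85 and 1.21 CPM. Prrxl1 and Lrrc26 stayed at or below 0.329 CPM in the silenced libraries, and their calls were lost when single libraries were left out (any of the 4 but replicate 1 of day 3 for Prrxl1, and any but replicate 2 of day 3 for Lrrc26). Of the largest siControl falls that were repeated, Krt13, an epithelial keratin, went from 3.38 and 2.28 CPM to at most 1 count and Cbln4, a secreted synaptic protein, from 9.27 and 4.26 CPM to at most 2 counts. Pcsk1, Akr1c18 and Prima1 ended at no more than 0.0412 CPM, and Sct, Scn9a and Selp complete the 8.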

How the data were processed

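RNA was extracted from PMs of both siRNAs at days 0, 3 and 6 in 2 replicates, and polyadenylated RNA was made into libraries with the TruSeq RNA v2 kit, which does not keep the strand. Reads of a gene and of an overlapping gene on the other strand can therefore not be told apart. The authors mapped the reads to mm9, and the submitters' processing notes name CASAVA 1.8.2, TopHat2 2.0.10, Bowtie2 2.1.0, HTSeq 0.6.1 and DESeq2 1.8.1. The authors deposited raw counts of reads per gene for 28109 Ensembl genes, together with counts divided by DESeq2 size factors, which were not used here, gene lengths and annotation. The 36 value columns of 12 libraries that are not among the listed samples were not used. No column of fold changes or p-values was used. Every row carries a gene name.

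Under R 4.3.3, the model of edgeR 4.0.16 was fitted to the counts of all 12 PM libraries with 1 mean per group, which share one estimate of the spread, after filterByExpr by group and TMM scaling. The quasi-likelihood test was applied to siTead1/4 day 3 against day 0, to the same contrast in siControl, to siTead1/4 against siControl at each day, and to the difference of the 2 day contrasts, which share no library. P-values were adjusted over the 16144 genes tested by the Benjamini-Hochberg method, and a call asks for an adjusted p under 0.05 and a log2 fold change over 1 in size. Standard errors were taken as the size of the log2 fold change divided by the root of the F statistic. Both replicate values are printed in place of a mean and SD. The script was tested on simulated data. With 2 replicates per group, an exact permutation test of single genes cannot reach the threshold and none was run.

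The text names the Tead genes, members of the gene lists, the genes of largest change or difference, those with the largest siControl changes that were repeated, and those with a called difference whose change after silencing was nearest 0. The lists and the members were chosen with earlier results of these data known. RefSeq promoters cover too few of the genes tested for a comparison of motif shares between gene groups, and none was made. Myosin heavy chains, actins and other close copies may share reads. DESeq2 1.42.0, other scalings, filters, sets of libraries, a replicate block and leaving out each library were tried as alternatives.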

Additional observations from a re-analysis of the deposited data

Results flagged for a closer look

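For 24 genes the day 3 change in siTead1/4 PMs differed from that in siControl PMs by the edgeR test of the difference itself, and they are the 12 with the largest difference in each direction among the 53 called. The differences, on the log2 scale and as siTead1/4 minus siControl, were positive for Cacna1h (3.31), St18 (3.24), Dlk2 (3.17), Samd7 (3.00), Ramp1 (2.79), Col24a1 (2.56), St8sia4 (2.50), Abra (2.45), Smoc1 (2.38), Tceal7 (2.36), Npr3 (2.02) and B3galt2 (2.01). They were negative for Clip4 (-3.01), Dhrs3 (-2.84), Itga11 (-2.77), Pik3ip1 (-1.91), P2rx6 (-1.82), Hspa2 (-1.42), Pdzrn3 (-1.38), Ptpn3 (-1.32), Whrn (-1.31), Atp1b2 (-1.30), Atp9a (-1.29) and Aox1 (-1.25). In Cacna1h, B3galt2, Clip4 and Ptpn3 the libraries of both siRNAs lay near each other at day 0 and apart at day 3, whereas in Abra, Hspa2, P2rx6 and Aox1 the siRNAs differed more at day 0 than at day 3. Samd7 and St18 had no more than 3.54 CPM in any siTead1/4 library. The part of day 0 levels in these differences was not tested. Calls of single genes depended on the setting, and 7 of the 53 were made again with all 24 libraries.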

How the results depend on the processing

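The counts of siTead1/4 genes that rose (2568) and fell (2005) stayed within 1.5 times of these values under every alternative run. The same held for the counts of siControl changes that were repeated (2007 and 1658) and for the median changes after silencing. The 2568 rises were 1781 to 2762 and the 2005 falls 1540 to 2078, the lowest with at least 10 counts asked for in every library, and the shares of siControl rises and falls repeated were 63.6% to 74.2% and 63.6% to 72.4%. The counts of called differences (37 positive and 16 negative) depended on the setting. They were 152 and 119 with DESeq2, 201 and 172 with no filter beyond 1 count, 81 and 52 with only the 8 libraries of days 0 and 3, 6 and 1 with all 24 libraries, and 34 negative ones with at least 10 counts in every library. Leaving out 1 library gave 2 to 27 and 0 to 9. The 53 genes were all called again by DESeq2 and without the filter, and 7 of them with all 24 libraries. The cause of these shifts was not tested. With the replicate number as a block the counts were 163 and 124, all 53 genes were called again, no named gene changed sign, 4 endothelial markers fell in place of 1, and no interferon gene had a called difference (smallest adjusted p = 0.070). Deviations of same-numbered libraries from their group means correlated with r of 0.069 to 0.539 over the 15 pairs of groups, 14 of them above 0.1. The numbers were not taken to pair the samples, since this was asked of every pair and siControl day 0 with siTead1/4 day 3 had the 0.069. Of the 438 values of 43 named siTead1/4 changes under the alternatives, 430 kept their call and 8, all of Lrrc26 or Prrxl1, did not. Of the 463 values of 31 named differences, 237 kept their call, 226 did not and no sign changed. Of 1408 list counts, 1351 stayed within 1.5 times. With 2 replicates and genes near 3 counts, small differences between the siRNAs cannot be resolved.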

Other observations

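Single genes of metabolism and of Wnt signalling, chosen after their values were seen, also changed from day 0 to day 3 in siTead1/4 PMs. Klf15, a metabolic transcription factor, and Lpin1, a phosphatidate phosphatase, rose by 4.82 and 3.11 on the log2 scale, and Scd1, a fatty acid desaturase, by 2.64, while Pparg, the adipocyte regulator, fell by 2.27. Wif1, Frzb and Notum, secreted inhibitors of Wnt signalling, rose by 4.10, 3.26 and 2.69, and Sfrp2, another member of this class, fell by 2.91. Rgs5, a pericyte marker that was detected in these bulk libraries, fell from 132 and 129 CPM to 5.58 and 4.67 CPM. Sox10, a Schwann cell marker, was higher in replicate 1 than in replicate 2 in all 4 PM groups of days 0 and 3. It was at 1.42 and 0.216 CPM in siTead1/4 PMs at day 0.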
